A study of Mus musculus with 21 samples.

Results

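The RNA levels of 9 genes that encode proteoglycans and matricellular proteins of the extracellular matrix were examined in mouse tail keratinocytes with and without basal cell carcinoma (BCC). The genes were Dcn, Lum, Bgn, Vcan, Fn1, Tnc, Postn, Sparc and Thbs1, chosen by name, and all 9 were found among the 23713 genes of the deposited count table. Bulk RNA was sequenced from epidermal cells of 3 tumour models named SmoM2, Gnas-eKO and PKI, each with tumour-free controls (Con), in 3 Con and 4 BCC libraries per model and 21 in all. The tails were collected on day 29 of tumour growth for SmoM2, on day 42 for Gnas-eKO and on day 57 for PKI, counted from induction. SmoM2 libraries formed batch A, Gnas-eKO libraries batch B and PKI libraries batch C. SmoM2 is an activated form of the Hedgehog signal transducer Smoothened, and the product of Gnas is the G protein subunit through which receptors raise cAMP. PKI is also the name of a peptide inhibitor of the cAMP-dependent protein kinase, though the construct in the PKI mice is not described. The alleles, the promoter that drives each transgene or recombinase, and the strain, age and sex of the mice are not given in the sources used here, nor is what the control mice carry. Con libraries came from control mice of each model, whose epidermis held no tumour.

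Proteoglycans are core proteins that carry long sulfated sugar chains. Decorin (Dcn), lumican (Lum) and biglycan (Bgn) belong to the small leucine-rich family that binds collagen fibrils and growth factors such as TGF-beta, and versican (Vcan) is a large chondroitin sulfate proteoglycan that binds hyaluronan. Matricellular proteins act on cells more than they build fibres: tenascin-C (Tnc) and periostin (Postn) are known from wound edges and tumour matrix, SPARC binds collagen, and thrombospondin-1 (Thbs1) activates latent TGF-beta. Fibronectin (Fn1) is the adhesive glycoprotein that cells grip through integrins. In normal skin most of these genes are known best from fibroblasts of the dermis, the layer that was scraped away here.

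The genes lie on 8 chromosomes of the mouse build GRCm38, with gene bounds and exon lengths from GENCODE M21. Dcn (ENSMUSG00000019929.16, chromosome 10, 97479609 to 97518143, plus strand) and Lum (ENSMUSG00000036446.5, chromosome 10, 97565128 to 97572703, plus strand) are neighbours, 46984 bases apart. Bgn (ENSMUSG00000031375.17) is on chromosome X, 73483602 to 73495933, plus strand. Vcan (ENSMUSG00000021614.16) is on chromosome 13, 89655312 to 89742509, minus strand, and Fn1 (ENSMUSG00000026193.15) on chromosome 1, 71585520 to 71653200, minus strand. Tnc (ENSMUSG00000028364.15) is on chromosome 4, 63959785 to 64047015, minus strand, and Postn (ENSMUSG00000027750.16) on chromosome 3, 54361109 to 54391037, plus strand. Sparc (ENSMUSG00000018593.13) is on chromosome 11, 55394500 to 55423183, minus strand, and Thbs1 (ENSMUSG00000040152.8) on chromosome 2, 118111876 to 118127133, plus strand. All 9 are protein-coding, and their merged exons add up to between 2448 bases in Lum and 14462 bases in Vcan. Vcan overlaps Gm16318 and Gm4117, Fn1 overlaps Apol7d, Tnc overlaps 8030451A03Rik and Thbs1 overlaps Gm29233, each on the opposite strand, and how the counting handled strand is not given, so the counts of these 4 members are uncertain by whatever reads of the partner they hold.

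Promoter sequences of 5 members (Postn, Tnc, Sparc, Vcan and Bgn) were found in RefSeq's GRCm38 annotation, each 300 bases long from 250 before to 50 after an annotated start site. Those of Vcan and Bgn, the members with a promoter here that were higher in BCC in all 3 models, and Postn, the most abundant member in BCC, are shown 5′ to 3′ on the strand of the gene. Capitals mark motif matches, namely GGGCGG on either strand (the letters bound by SP1) and TATAAA on the gene's strand.
Vcan, chr13:89742463-89742762, minus strand: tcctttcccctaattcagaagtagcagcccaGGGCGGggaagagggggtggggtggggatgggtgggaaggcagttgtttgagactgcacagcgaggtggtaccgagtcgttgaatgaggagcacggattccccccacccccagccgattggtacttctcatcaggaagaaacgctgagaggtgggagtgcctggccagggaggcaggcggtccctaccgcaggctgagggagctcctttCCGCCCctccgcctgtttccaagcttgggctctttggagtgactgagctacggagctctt
Bgn, chrX:73483351-73483650, plus strand: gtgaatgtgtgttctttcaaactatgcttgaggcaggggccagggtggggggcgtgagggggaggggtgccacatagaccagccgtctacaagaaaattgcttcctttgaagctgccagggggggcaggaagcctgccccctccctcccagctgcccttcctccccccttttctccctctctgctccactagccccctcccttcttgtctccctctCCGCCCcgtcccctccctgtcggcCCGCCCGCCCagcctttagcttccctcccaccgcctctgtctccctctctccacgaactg
Postn, chr3:54360857-54361156, plus strand: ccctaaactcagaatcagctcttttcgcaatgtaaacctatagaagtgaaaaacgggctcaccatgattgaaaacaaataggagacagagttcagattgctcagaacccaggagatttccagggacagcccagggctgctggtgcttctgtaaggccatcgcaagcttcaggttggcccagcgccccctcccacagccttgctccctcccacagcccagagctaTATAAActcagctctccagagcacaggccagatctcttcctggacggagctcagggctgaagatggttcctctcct
Postn holds TATAAA with its first letter 26 bases before the start site, Vcan holds GGGCGG 2 times and Bgn 3 times, of which 2 overlap. The RefSeq window of Sparc starts from a site inside the gene as annotated by GENCODE, downstream of its 5′ end, so it is not shown as the gene's promoter. Over 32851 RefSeq promoters of the same length, 35.7% hold GGGCGG and 8.32% hold TATAAA. The letters GACCACCCA, to which GLI factors of the Hedgehog pathway bind, TGACTCA (AP-1) and TGACGTCA (the cAMP response element) were searched on both strands and matched none of the members' 7 windows in that table, the internal Sparc window included, against 0.253%, 5.20% and 1.79% of all promoters. These are letter matches in short windows only.

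Library totals ranged from 16645858 to 22251132 counts, so that 3 counts corresponded to at most 0.189 CPM (counts scaled to a common library size, with TMM factors), a floor that covers counting error only. The keratinocyte markers Krt5, Krt14, Krt1 and Krt10 were abundant in every library, and the summed level of 9 keratinocyte markers ranged from 51600 to 72322 CPM over the Con libraries and from 30415 to 74327 CPM over the BCC libraries. Of these 9 markers, 5 were lower (Krt14 most, −1.20) and Trp63 was higher in SmoM2 tumours, against 13.5% and 16.2% of all genes. In PKI tumours, 2 were lower and Krt1 was higher (15.8% and 18.7% of all genes), and for Gnas-eKO edgeR called 0, where 2 had an unadjusted p under 0.05 (19.6% of all genes) and DESeq2 called 2 lower (2.57% of all genes). The part of this shift in the members' differences was not tested. Gnas differed by −1.11 on the log2 scale between Gnas-eKO BCC and Con (edgeR adjusted p 0.0647), and Smo rose by 1.55 in SmoM2 (edgeR adjusted p 1.13e-06). Within Gnas-eKO BCC, replicates 2 and 3 stood farthest apart (Pearson's r of log2 CPM 0.942 with each other and 0.955 to 0.963 with the others, beside 0.977 between replicates 1 and 4). In the file headers the SmoM2 BCC libraries carry another letter code than the SmoM2 Con libraries. What the code means is not stated, and it cannot be told apart from the tumour. The labels number the libraries but do not state that each came from a separate mouse, so p-values measure the spread between libraries.

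In SmoM2 tumours Dcn, Bgn, Vcan, Tnc and Postn rose and Sparc fell, and the same direction was seen for Dcn, Bgn and Vcan in Gnas-eKO and PKI. Dcn rose 21.1-fold in SmoM2 tumours, 16.8-fold in those of Gnas-eKO and 4.79-fold in those of PKI, and Sparc fell 3.62-fold in SmoM2 and 2.48-fold in PKI. All 9 members passed the filter on low counts in each model, but Lum, with no Con library at the filter's level, passed through the BCC libraries alone, so that a difference in Lum was built into its being tested. In SmoM2, 5 of the 9 were higher and 1 was lower at an adjusted p under 0.05 (edgeR quasi-likelihood test, Benjamini-Hochberg over 16370 genes), against 16.2% and 13.5% of all genes tested (29.7% in either direction). In PKI, 5 were higher (Dcn, Lum, Bgn, Vcan and Tnc) and 1 lower, against 18.7% and 15.8% of 16397 genes (34.5% in either direction), and without Lum the count higher was 4 of 8. In Gnas-eKO, 5 were higher (Dcn, Bgn, Vcan, Fn1 and Postn) and 0 lower, against 1.46% and 0.165% of 16409 genes (1.63% in either direction). There all 9 members had an unadjusted p under 0.05, as did 19.6% of all genes tested, and DESeq2 called 8 higher, Lum among them, and 0 lower, beside 6.78% and 2.57% of all genes called by DESeq2. The median log2 fold change of the 9 members was 2.45 for SmoM2, 2.60 for Gnas-eKO and 1.13 for PKI, beside 0.00054, 0.020 and −0.0012 over all genes tested. Over the 8 members other than Lum it was 2.52, 2.47 and 1.09. In bulk RNA, more cells of a type and more RNA per cell cannot be told apart.

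The Gnas-eKO count shifted when single libraries were left out, as did the count over all genes, 267 of 16409 with every library kept. Leaving out any 1 of the 3 Gnas-eKO Con libraries left 0 members called in either direction (edgeR). Over all genes, 0 were called without Con replicate 1 or 2 and 4 without Con replicate 3. Leaving out BCC replicate 1 or BCC replicate 4 left 1 member called higher, beside 38 and 59 genes called in all. Without BCC replicate 2, 7 members were called higher and Sparc was called lower, beside 1910 of 16195 genes called. DESeq2's size factors and no filter on low counts each gave 3 called higher, beside 258 of 16409 and 309 of 23571 genes called. In SmoM2, leaving out Con replicate 3 raised the count called higher from 5 to 8, beside 4215 of 16783 genes called. In PKI the count ranged from 3 without Con replicate 2 or Con replicate 3 to 7 without Con replicate 1. Over all genes these PKI fits called 4057 of 16855, 4201 of 16812 and 4612 of 16726. The groups did not overlap for 6 members above and 1 below Con in SmoM2 (19.6% and 19.2% of all genes), for 8 and 1 in Gnas-eKO (9.98% and 9.7%) and for 5 and 1 in PKI (22.4% and 20.8%). Lum, which passed the filter through BCC alone, was among the members above Con in Gnas-eKO and PKI.

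**Figure D1:**
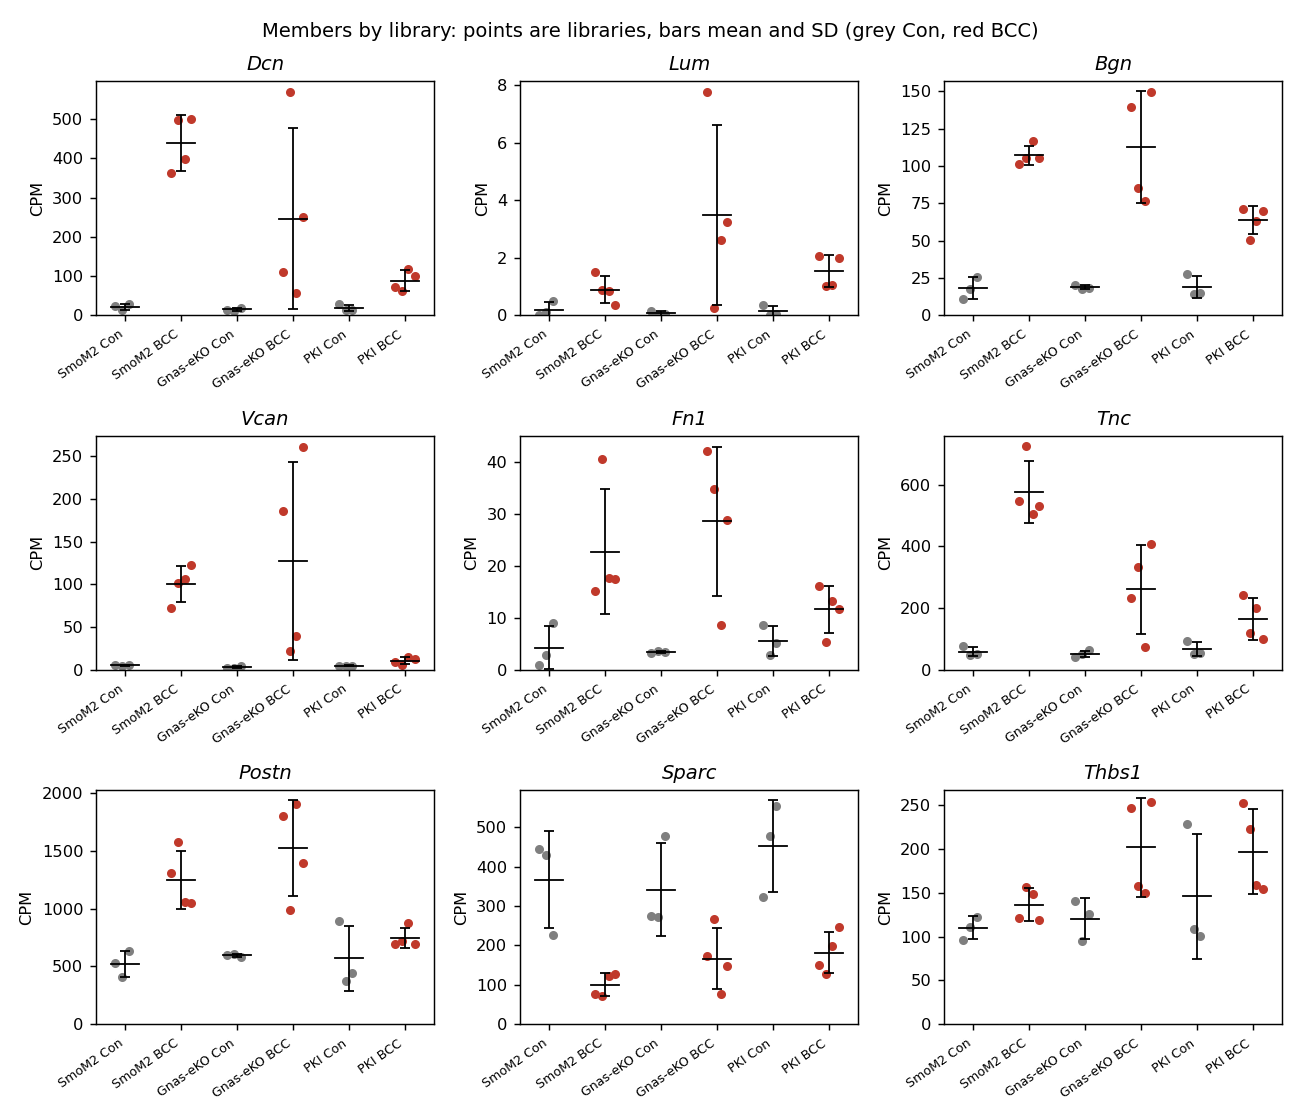
Each panel plots the CPM of 1 member (vertical axis, from 0) in the 6 groups, with 1 point per library, grey for Con and red for BCC, a line at the mean and a bar of 1 SD. Dcn, Bgn and Vcan lie above Con in every BCC library of each model, and Sparc lies below Con in every BCC library.

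Decorin changed most in abundance among the small leucine-rich proteoglycans. In SmoM2, Dcn was at 22.9, 12.2 and 27.7 CPM in the 3 Con libraries and at 362, 499, 398 and 500 CPM in the 4 BCC libraries. The 4 tumour libraries lay close together, and none came near Con. On the log2 scale BCC exceeded Con by 4.40 (SE 0.32, edgeR adjusted p 0.000108). In Gnas-eKO, Con libraries had 14.0, 11.1 and 19.3 CPM and BCC libraries 111, 569, 56.3 and 251 CPM (log2 fold change 4.07, SE 0.79, edgeR adjusted p 0.0485). Here the tumour libraries were spread over a 10.1-fold range, with replicate 2 highest and replicate 3 lowest, all above Con. In PKI, Con libraries had 28.3, 13.1 and 14.2 CPM and BCC libraries 72.9, 61.7, 119 and 99.8 CPM (log2 fold change 2.26, SE 0.35, edgeR adjusted p 0.00332). In Gnas-eKO the Dcn call did not hold with DESeq2's size factors (edgeR adjusted p 0.0510) or without the filter on low counts (0.120), and the adjusted p ran from 4.33e-05 to 0.282 across all settings with every library kept.

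Biglycan, the closest relative of decorin, rose more evenly. SmoM2 Con libraries had 10.9, 17.8 and 25.7 CPM of Bgn and BCC libraries 101, 105, 116 and 106 CPM. Gnas-eKO Con libraries had 20.3, 17.8 and 18.1 CPM and BCC libraries 140, 85.1, 76.2 and 149 CPM. PKI Con libraries had 27.6, 14.5 and 15.0 CPM and BCC libraries 71.1, 50.3, 63.2 and 70.1 CPM. No BCC library reached down to Con in any model, and the BCC libraries of SmoM2 varied by only 6.07% (SD over mean, n = 4). The log2 fold change of Bgn was 2.58 in SmoM2 tumours (SE 0.27, edgeR adjusted p 0.000445), 2.60 in Gnas-eKO tumours (SE 0.27, adjusted p 0.00818) and 1.75 in PKI tumours (SE 0.24, adjusted p 0.00155). Bgn passed in all 7 alternatives with every library kept, and in Gnas-eKO it missed the threshold when a Con library was left out (adjusted p up to 0.0996).

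Lumican, the neighbour of decorin on chromosome 10, was near the limit of detection in Con. Its estimated counts were 0 to 9 in SmoM2 Con libraries and 7 to 33 in BCC libraries, at 0.201 ± 0.254 CPM (SD, n = 3) and 0.887 ± 0.467 CPM (SD, n = 4), and the groups overlapped. In Gnas-eKO, 0 to 3 counts in Con stood against 5 to 168 in BCC, where the libraries had 7.76, 0.268, 2.62 and 3.24 CPM. The highest Lum was in replicate 1 and the lowest in replicate 2, the library with the highest Dcn. In PKI, Con libraries had 0.355, 0 and 0.0601 CPM and BCC libraries 2.05, 1.03, 1.07 and 1.97 CPM, with no overlap. For Lum the fitted log2 fold change was 2.18 in SmoM2 tumours (SE 0.83, edgeR adjusted p 0.0778), 5.54 in Gnas-eKO tumours (SE 1.25, adjusted p 0.0661) and 3.31 in PKI tumours (SE 0.71, adjusted p 0.00684). DESeq2 called the SmoM2 and Gnas-eKO differences (adjusted p 0.0488 and 4.74e-05), as did the joint fit of all libraries for Gnas-eKO (0.00342) but not for SmoM2 (0.141). With so few Con counts these sizes depend on the prior count of the fit, and on the log2(value + 1) scale of the authors' normalized table they were as low as 0.64, 1.76 and 1.14.

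Versican, the large hyaluronan-binding proteoglycan, separated the models most. Con libraries held little Vcan, with 5.79, 4.36 and 5.79 CPM in SmoM2, 2.23, 2.23 and 4.55 CPM in Gnas-eKO, and 4.66, 4.93 and 4.99 CPM in PKI. SmoM2 BCC libraries had 72.1, 102, 107 and 123 CPM (log2 fold change 4.26, SE 0.22, edgeR adjusted p 6.1e-06). Gnas-eKO BCC libraries had 186, 22.03, 39.4 and 262 CPM, an 11.9-fold range in which replicates 1 and 4 were high (log2 fold change 5.41, SE 1.02, edgeR adjusted p 0.0485). PKI BCC libraries had 9.29, 5.16, 15.0 and 12.8 CPM, and replicate 2 lay just above the highest Con library. In PKI the log2 fold change of Vcan came to 1.13 (SE 0.33, edgeR adjusted p 0.0265), and it missed the threshold in the joint fit of all libraries (adjusted p 0.227, the highest of a span that began at 0.00254). Without each PKI Con library in turn or without PKI BCC replicate 4, it missed the threshold as well (adjusted p up to 0.0816). The Gnas-eKO call missed it with DESeq2's size factors (adjusted p 0.0501) and without the filter on low counts (0.118).

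Tenascin-C, an anti-adhesive glycoprotein with an epidermal growth factor-like repeat region, also rose in SmoM2. Con libraries there had 75.9, 47.6 and 52.6 CPM of Tnc and BCC libraries 548, 725, 503 and 531 CPM, far above Con in each. The SmoM2 difference was 3.31 on the log2 scale (SE 0.21, edgeR adjusted p 2.43e-05). In Gnas-eKO, Con libraries had 42.1, 49.6 and 63.1 CPM and BCC libraries 233, 332, 73.0 and 407 CPM. Replicate 3 was near Con and the others well above, and the log2 fold change of 2.35 (SE 0.51) did not pass the threshold (edgeR adjusted p 0.0610), but passed with DESeq2 (1.65e-05) and in the joint fit of all libraries (0.00234), with 0.223 the highest value of any setting. In PKI, Con libraries had 92.5, 52.5 and 54.8 CPM and BCC libraries 242, 118, 202 and 99.7 CPM (log2 fold change 1.33, SE 0.38, edgeR adjusted p 0.0380). The PKI call was lost without Con replicate 2, Con replicate 3, BCC replicate 1 or BCC replicate 3 (adjusted p up to 0.113), and without the filter on low counts (0.0790).

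Fibronectin was low throughout and varied between libraries of the same group. SmoM2 Con libraries had 1.01, 2.75 and 8.92 CPM of Fn1 and BCC libraries 15.2, 40.7, 17.6 and 17.4 CPM. Although these did not overlap, the log2 fold change of 2.45 (SE 0.78) did not pass the threshold (edgeR adjusted p 0.0638), while without Con replicate 3, the highest Con library, it was 3.64 (adjusted p 0.0176). DESeq2 (adjusted p 0.00886) and the joint fit (0.0116) also called it. In Gnas-eKO, Con libraries had 3.24, 3.69 and 3.47 CPM and BCC libraries 42.1, 34.8, 8.67 and 28.8 CPM, with replicate 3 lowest (log2 fold change 3.05, SE 0.49, edgeR adjusted p 0.0309). PKI Con libraries had 8.66, 2.90 and 5.23 CPM and BCC libraries 16.2, 5.37, 13.2 and 11.7 CPM. These overlapped, and BCC exceeded Con by 1.06 on the log2 scale (SE 0.44, edgeR adjusted p 0.105), a difference that DESeq2 called (adjusted p 0.0266) and the joint fit did not (0.225).

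Periostin, an integrin-binding matricellular protein, was already abundant in control epidermis. SmoM2 Con libraries had 526, 411 and 634 CPM of Postn and BCC libraries 1304, 1578, 1054 and 1048 CPM (log2 fold change 1.27, SE 0.20, edgeR adjusted p 0.00224). Gnas-eKO Con libraries were within 584 to 604 CPM and BCC libraries had 1804, 990, 1908 and 1399 CPM (log2 fold change 1.37, SE 0.24, edgeR adjusted p 0.0384). Every tumour library of these models lay above every Con library. PKI Con libraries had 890, 371 and 446 CPM, and BCC libraries 698, 722, 878 and 695 CPM. Here Con replicate 1 lay above all 4 tumour libraries, and the log2 fold change of 0.41 (SE 0.29) did not pass the threshold (edgeR adjusted p 0.314). Without Con replicate 1 it was 0.88 (adjusted p 0.00212).

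SPARC, a collagen-binding glycoprotein, moved against the others. SmoM2 Con libraries had 445, 430 and 225 CPM of Sparc and BCC libraries 77.4, 71.9, 123 and 128 CPM. PKI Con libraries had 324, 477 and 554 CPM and BCC libraries 151, 128, 199 and 245 CPM. In both models each BCC library lay below each Con library, with log2 fold changes of −1.86 (SE 0.33, edgeR adjusted p 0.00706) and −1.31 (SE 0.26, adjusted p 0.00755). Gnas-eKO Con libraries had 273, 273 and 477 CPM and BCC libraries 172, 266, 77.7 and 149 CPM. Replicate 2 came within a few CPM of the lowest Con library, and the log2 fold change of −1.03 (SE 0.38) did not pass the threshold (edgeR adjusted p 0.187). Without BCC replicate 2 it was −1.34 (adjusted p 0.0417).

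Thrombospondin-1 was the member with the smallest differences in SmoM2 and Gnas-eKO. SmoM2 Con libraries had 96.4, 111 and 123 CPM of Thbs1 and BCC libraries 121, 157, 149 and 119 CPM. Gnas-eKO Con libraries had 141, 94.7 and 126 CPM and BCC libraries 247, 157, 149 and 253 CPM. PKI Con libraries had 228, 109 and 101 CPM and BCC libraries 252, 223, 159 and 154 CPM. The groups overlapped in SmoM2 and PKI, and in Gnas-eKO the lowest tumour libraries lay just above Con. BCC differed from Con in Thbs1 by 0.33 on the log2 scale for SmoM2 (SE 0.12, edgeR adjusted p 0.0697), by 0.76 for Gnas-eKO (SE 0.24, adjusted p 0.138) and by 0.45 for PKI (SE 0.33, adjusted p 0.344). DESeq2 called the SmoM2 and Gnas-eKO differences (adjusted p 0.0474 and 0.0396). Without PKI Con replicate 1, the PKI value was 0.91 (edgeR adjusted p 0.0191).

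**Figure D2:**
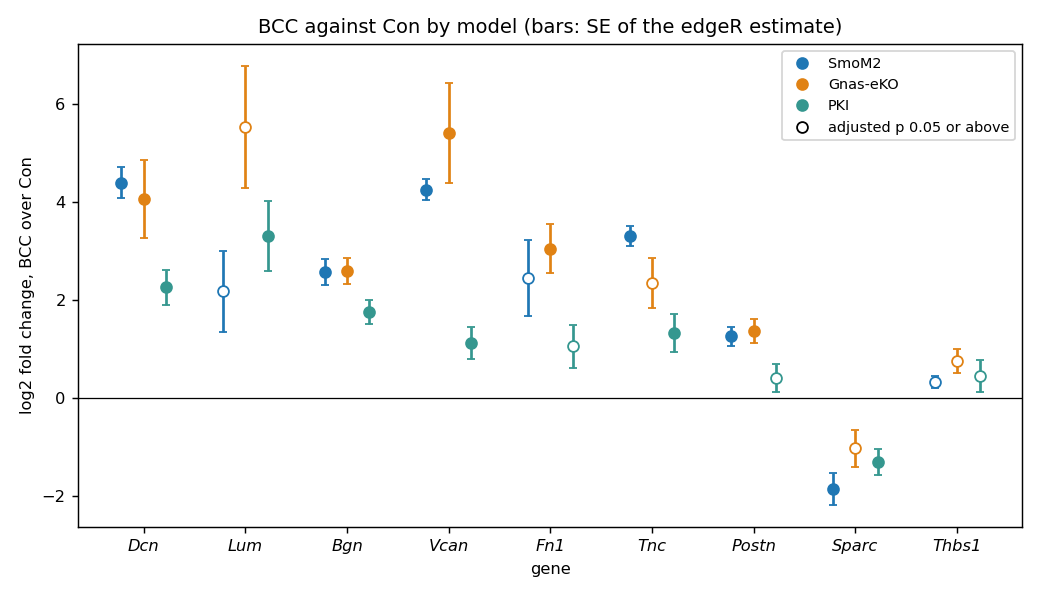
The log2 fold change of BCC over Con from the edgeR fits (vertical axis) is drawn for each member (horizontal axis) in SmoM2 (blue), Gnas-eKO (orange) and PKI (green), with bars of 1 SE and open circles for an adjusted p of 0.05 or above. Sparc lies below 0 in each model and the other 8 members above it, with Vcan spread widest between models, from 1.13 in PKI to 5.41 in Gnas-eKO.

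Divided by exon length, the order of the members changed between control and tumour. As means of CPM per kilobase of merged exon, Sparc led in Con, at 96.8 ± 32.4 for SmoM2, 90.0 ± 31.1 for Gnas-eKO and 119 ± 31.0 for PKI (SD, n = 3 each). Postn came next in Con, at 60.2 ± 12.8, 68.4 ± 1.22 and 65.4 ± 32.2, followed by Thbs1 at 18.1 ± 2.17, 19.8 ± 3.89 and 24.0 ± 11.7. Tnc, Dcn and Bgn were between 2.53 and 8.57 CPM per kilobase on average in Con, and Vcan, Fn1 and Lum below 0.5. The ranges of Sparc and Postn over the Con libraries did not overlap in Gnas-eKO, but they overlapped in SmoM2 and PKI. In BCC, Postn led in each model, at 143 ± 28.9 for SmoM2, 175 ± 48.2 for Gnas-eKO and 86.0 ± 10.1 for PKI (SD, n = 4 each). In SmoM2 BCC, Dcn (75.3 ± 12.1) and Tnc (74.2 ± 12.9) came next and did not differ beyond their spread, ahead of Sparc (26.5 ± 7.84), Thbs1 (22.5 ± 3.15) and Bgn (17.6 ± 1.07). In PKI BCC, Sparc came next after Postn (47.8 ± 13.7), ahead of Thbs1 (32.4 ± 7.97), Tnc (21.3 ± 8.72), Dcn (15.1 ± 4.46) and Bgn (10.4 ± 1.57). From Sparc to Bgn the library ranges of neighbours in this order overlapped, as did those of Sparc and Thbs1 in SmoM2 BCC. In Gnas-eKO BCC, Sparc (43.9 ± 20.5), Dcn (42.3 ± 39.4), Tnc (33.6 ± 18.6) and Thbs1 (33.2 ± 9.25) did not differ beyond their spread.

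The effect of BCC on versican, decorin and tenascin-C was smaller in PKI than in SmoM2. The difference of log2 fold changes, PKI less SmoM2, was −3.12 for Vcan (SE 0.43, edgeR adjusted p 0.000371), −2.14 for Dcn (SE 0.48, adjusted p 0.00777) and −1.98 for Tnc (SE 0.45, adjusted p 0.0089), as an interaction contrast over 14 libraries. These 3 of 9 members stand against 24.9% of 17261 genes whose effects differed between these models in either direction (12.6% higher and 12.3% lower in PKI). The Dcn difference missed the threshold in the joint fit of all libraries (adjusted p 0.0760, the highest of a span that began at 0.000223). For Bgn the difference was −0.83 (SE 0.38, adjusted p 0.128) and for Postn −0.86 (SE 0.38, adjusted p 0.120), neither past the threshold. Against Gnas-eKO, 1 of 9 members differed, beside 9.06% of 17254 genes (4.49% higher and 4.57% lower in PKI). It was Vcan, whose effect was lower in PKI by −4.28 (SE 1.10, adjusted p 0.0332), a call that was lost without the filter on low counts (0.0621) and without any 1 of 8 libraries (adjusted p up to 0.0915). Those were Con replicates 1 and 2 and BCC replicate 1 of Gnas-eKO, and the 3 Con libraries and BCC replicates 1 and 2 of PKI. Between Gnas-eKO and SmoM2, edgeR and DESeq2 each called 0 of 9, and 0 had an unadjusted p under 0.05, beside 0.175% of 17151 genes called (0.0758% higher and 0.0991% lower in Gnas-eKO). Differences there ranged from −0.95 (SE 0.58) for Tnc to 3.37 (SE 1.75) for Lum. Each pair of models is also a pair of batches and of days, which cannot be told apart from the model.

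Because Dcn and Lum are widely used as fibroblast genes, the fibroblast markers were set beside them, per length. In SmoM2 BCC, Dcn had 62.0 to 85.6 CPM per kilobase and Lum 0.144 to 0.609, while Col1a1, the chain of the main dermal collagen, had 0.177 to 0.557, Col3a1 0.189 to 0.434 and Pdgfra, a fibroblast receptor, 0.0337 to 0.0878. Other markers of the list were higher per kilobase, with 13.9 to 18.7 for Thy1, 1.66 to 2.27 for Col6a2 and 0.616 to 1.78 for Col1a2. Dpt, a dermal matrix gene, was at 0 in all 3 SmoM2 Con and 2 of the 4 SmoM2 BCC libraries. Col1a1, Col3a1 and Pdgfra were not called in SmoM2 (log2 fold changes 0.36, −0.071 and 0.73, edgeR adjusted p 0.575, 0.955 and 0.274), beside 4.40 for Dcn. Of the 11 markers on the list, 7 were tested in SmoM2, with Col1a2 (2.94, edgeR adjusted p 0.00588), Col6a2 (0.78, adjusted p 0.00294) and Twist2 (5.48, adjusted p 0.000496) higher and Thy1 lower (−1.23, adjusted p 6.77e-05). Twist2, at 0 to 2 counts in Con and 21 to 53 in BCC, passed the filter on low counts through BCC alone, and its fitted size depends on the prior count. Col1a2, the partner chain of Col1a1, had 19.4, 22.1, 10.0 and 7.66 CPM in SmoM2 BCC and 1.19 to 3.25 CPM in Con. Thy1, which T cells of the epidermis also express, made up most of the summed level of the list, which was 129 to 151 CPM in SmoM2 Con and 80.6 to 101 CPM in SmoM2 BCC. Without Thy1, a sum chosen after the values were seen, the other 10 markers had 13.5 to 22.6 CPM in SmoM2 Con and 29.8 to 45.8 CPM in SmoM2 BCC, higher with no overlap.

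Col1a1 and Col3a1 were also measured in the other models, beside 1.16 to 3.66 CPM of Col1a1 and 1.85 to 4.26 CPM of Col3a1 in SmoM2 BCC. Col1a1 had 28.9, 2.57, 12.1 and 12.2 CPM in the Gnas-eKO BCC libraries, with 1.62 to 2.07 CPM in Con (log2 fold change 2.98, edgeR adjusted p 0.0748), and Col3a1 25.4, 3.27, 13.2 and 9.91 CPM. The library with the highest Col1a1 and Col3a1, replicate 1, was also the highest in Lum, and replicate 2, the lowest in both collagens and in Lum, was the highest in Dcn. Of 6 markers tested there, edgeR called 0, while 4 had an unadjusted p under 0.05 (19.6% of all genes) and DESeq2 called 3 higher and 1 lower (6.78% and 2.57%). Their median log2 fold change was 1.67. In PKI, 8 were tested, of which Col3a1, Fap and Twist2 were higher and Col6a2 lower, with a median of 1.54. Fap and Twist2, at 0 to 2 counts in the PKI Con libraries, passed the filter through BCC alone, and of the other 6 markers 1 was higher and 1 lower, with a median of 1.01. The counts of 3 of 7 higher and 1 lower in SmoM2 and 3 of 8 and 1 in PKI stand against 16.2% and 13.5% of all genes in SmoM2 and 18.7% and 15.8% in PKI. Col1a1 was at 9.04, 10.0, 5.43 and 17.6 CPM in PKI BCC and at 5.22, 0.568 and 1.74 CPM in PKI Con, where replicate 1 was also the highest Con library in 7 of the 9 members, that is in Dcn, Lum, Bgn, Fn1, Tnc, Postn and Thbs1. In SmoM2 Con, replicate 3 was the highest in 6 of the 9 members, that is in Dcn, Lum, Bgn, Fn1, Postn and Thbs1, and in Col1a1, Col1a2 and Col3a1 (6.11 CPM, against 0.781 and 1.20 CPM). Summed over the list, the markers had 144 to 158 CPM in Gnas-eKO Con, 73.8 to 136 CPM in Gnas-eKO BCC, 32.3 to 70.6 CPM in PKI Con and 66.4 to 92.0 CPM in PKI BCC. Without Thy1 the sums went the other way in Gnas-eKO, at 14.4 to 22.6 CPM in Con and 22.9 to 113 CPM in BCC, and in PKI they were 11.4 to 29.9 CPM and 25.7 to 54.5 CPM. The part of fibroblasts in the members' differences was not tested in any of the 3 models.

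**Figure D3:**
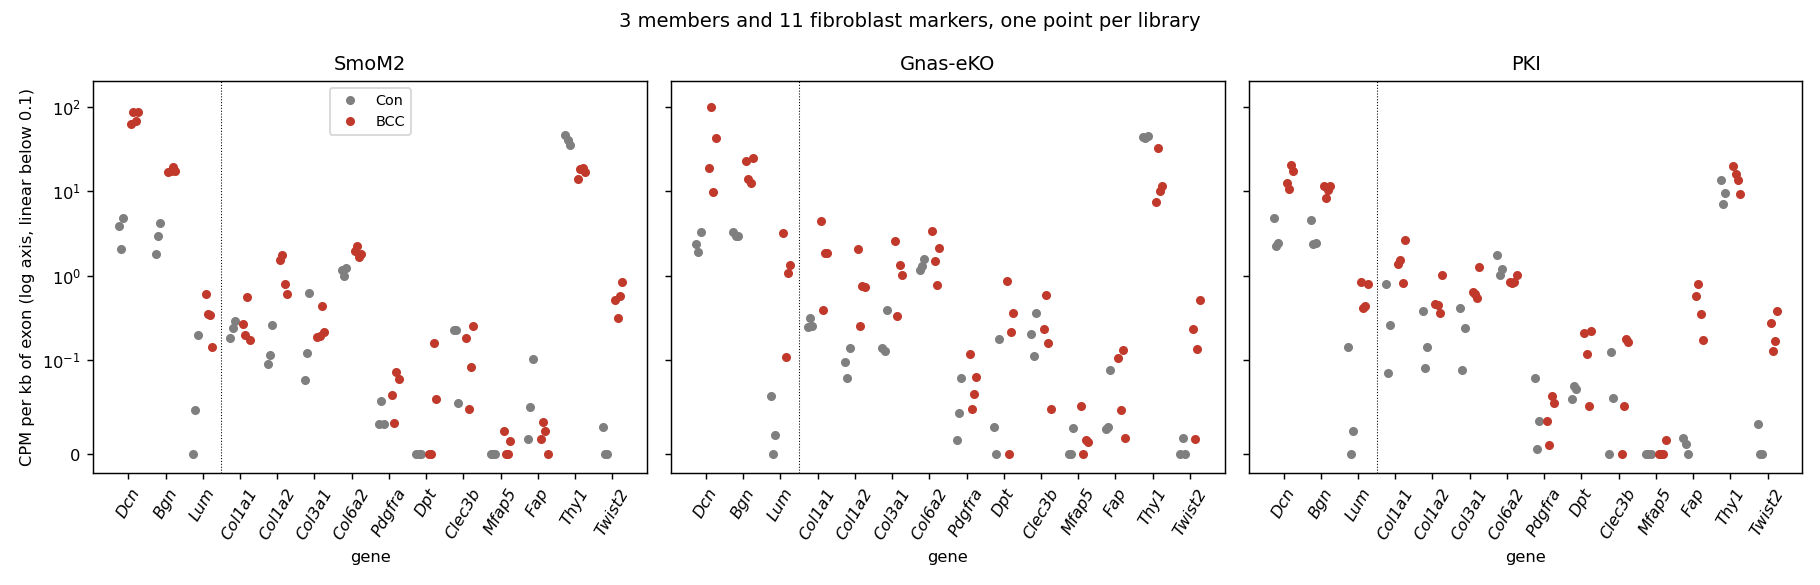
CPM per kilobase of merged exon (vertical axis, logarithmic above 0.1 and linear below) is plotted for Dcn, Bgn and Lum, left of the dotted line, and for the 11 fibroblast markers of the list, with 1 point per library, grey for Con and red for BCC. In SmoM2 BCC the points of Dcn lie at 62.0 to 85.6, those of Thy1 at 13.9 to 18.7, those of Col1a1 at 0.177 to 0.557 and those of Lum, at a like level, at 0.144 to 0.609.

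Markers of other cells also moved, and the shares of all genes called higher and lower, against which the counts stand, were 16.2% and 13.5% in SmoM2. For Gnas-eKO those shares were 1.46% and 0.165% (6.78% and 2.57% by DESeq2, and 19.6% at an unadjusted p under 0.05), while PKI had 18.7% and 15.8%. Of 8 leukocyte markers, 6 were called higher in PKI (for example Ptprc, log2 fold change 2.26, edgeR adjusted p 0.000779), beside 2 of 7 higher and 1 lower in SmoM2 and 0 of 7 in Gnas-eKO, where 3 had an unadjusted p under 0.05 and DESeq2 called 1 higher and 1 lower. Their summed level in PKI was 23.3 to 38.8 CPM in Con and 506 to 1670 CPM in BCC. That sum is mostly S100a8, which stressed keratinocytes express as well. Endothelial markers summed to 1.47 to 5.17 CPM over all Con and to 3.65 to 9.47 CPM over all BCC libraries, with 2 of 3 tested called higher in SmoM2 and in PKI and 1 of 3 in Gnas-eKO. Of the mural cell markers, 2 of 3 tested were higher and 1 lower in SmoM2. The 2 higher (Abcc9 and Pdgfrb) and the endothelial Egfl7 passed the filter in SmoM2 through BCC alone. Of the melanocyte markers, 2 of 5 were lower in SmoM2 and 4 of 5 in PKI. No other mural cell or melanocyte marker was called by edgeR in any model. In Gnas-eKO all 3 mural cell markers tested, of which Abcc9 and Pdgfrb passed through BCC alone, had an unadjusted p under 0.05, with a median log2 fold change of 2.13, and DESeq2 called 1 of them higher. For the melanocyte markers in Gnas-eKO and the 1 mural cell marker tested in PKI, 0 had an unadjusted p under 0.05 and DESeq2 called 0. Whether these cells contribute to the members' levels was not tested.

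Other proteoglycans moved both ways. Of 11 further extracellular proteoglycans and hyaluronan partners tested in SmoM2, 6 were higher and 1 lower (16.2% and 13.5% of all genes). The counts were 2 of 12 and 0 for Gnas-eKO (1.46% and 0.165%) and 4 of 10 and 5 for PKI (18.7% and 15.8%). Their median log2 fold change was 0.68 for SmoM2, 0.72 for Gnas-eKO and −0.65 for PKI, beside 0.00054, 0.020 and −0.0012 over all genes. Perlecan (Hspg2), the basement membrane heparan sulfate proteoglycan, rose by 3.26, 2.84 and 1.33 on the log2 scale (edgeR adjusted p 3.29e-07, 0.0202 and 0.00519), and in SmoM2 its level was 58.6 ± 9.40 CPM over the 3 Con libraries and 556 ± 54.7 CPM over the 4 BCC libraries (SD). The hyaluronan synthase gene Has3 rose in SmoM2 (2.89) and PKI (3.28), and in Gnas-eKO it differed by 1.01 (edgeR adjusted p 0.321). Osteoglycin (Ogn), another small leucine-rich proteoglycan, fell by 3.19 in SmoM2 and by 5.61 in PKI, with −3.18 in Gnas-eKO (edgeR adjusted p 0.0811). Podn, of the same family, fell by 1.91 in PKI. Serglycin (Srgn), a proteoglycan of leukocyte granules, rose by 3.91 in PKI, where it passed the filter through BCC alone, and by 1.58 in SmoM2. Agrin (Agrn) rose by 0.50 in SmoM2 and 0.87 in Gnas-eKO and fell by 0.38 in PKI.

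Among 12 cell-surface proteoglycans tested in each model, 5 were higher and 3 lower in SmoM2, 4 were higher and 6 lower in PKI, and edgeR called 0 for Gnas-eKO, where 7 had an unadjusted p under 0.05 (19.6% of all genes) and DESeq2 called 4 higher and 0 lower (6.78% and 2.57%). By edgeR the shares of all genes higher and lower were 16.2% and 13.5% in SmoM2, 1.46% and 0.165% for Gnas-eKO and 18.7% and 15.8% in PKI. The syndecan Sdc3 rose by 2.05 in SmoM2 and 1.36 in PKI, with 1.51 in Gnas-eKO (edgeR adjusted p 0.0861). The glypican Gpc4 rose by 1.50 in SmoM2 and 0.44 in PKI, and the hyaluronan receptor Cd44 by 0.24 in SmoM2 and 0.95 in PKI. Betaglycan (Tgfbr3), a TGF-beta co-receptor, fell by 0.60 in SmoM2 and by 1.26 in PKI. The main epidermal syndecan, Sdc1, fell by 0.50 in SmoM2, and Gpc6 fell by 0.90 in PKI, while in SmoM2 its log2 fold change was +0.56, with a higher mean in BCC (edgeR adjusted p 0.0976).

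Other matricellular and related glycoproteins had 8 of 24 higher and 6 lower in SmoM2. For Gnas-eKO these counts were 2 of 23 and 0, and for PKI 4 of 25 and 5. As shares these were 33.3% and 25% in SmoM2 (16.2% and 13.5% of all genes), 8.7% and 0% for Gnas-eKO (1.46% and 0.165%), and 16% and 20% for PKI (18.7% and 15.8%). Spp1 and Tnn, called higher in PKI, passed the filter there through BCC alone, and Tnr, called lower in SmoM2, through Con alone. Without genes that passed through 1 group, 8 of 23 were higher and 5 lower in SmoM2, and 2 of 22 higher and 5 lower in PKI. The PKI shares were then 9.09% and 22.7%, against 16.9% and 15.8% of all genes taken likewise. Their median log2 fold changes were 0.12, 0.47 and −0.13. Fibulin-2 (Fbln2) rose by 2.16 in SmoM2 and 2.58 in Gnas-eKO, with −0.38 in PKI (edgeR adjusted p 0.221). Fibrillin-2 (Fbn2) rose by 2.92 in SmoM2 and the latent TGF-beta binding protein gene Ltbp2 by 1.51 in SmoM2 and 1.76 in Gnas-eKO, with −0.70 in PKI (edgeR adjusted p 0.0527). In PKI, Ltbp1 rose by 1.21 (1.29 in SmoM2), and Fbln1 rose from 22.7 to 51.1 CPM on average (log2 fold change 1.47 in SmoM2). Ccn2, a target of YAP signalling, fell by 1.57 in PKI but rose by 1.28 in SmoM2, and Ecm1 fell by 1.33 in PKI and 0.99 in SmoM2. Thbs2, a relative of Thbs1, fell by 1.13 in SmoM2 and 1.32 in PKI, and Tnxb, a relative of Tnc, fell by 1.26 in SmoM2.

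Of 20 receptors of the members, 5 were higher and 3 lower in SmoM2, 3 were higher and 4 lower in PKI, and edgeR called 0 for Gnas-eKO, where 4 had an unadjusted p under 0.05, 20% beside 19.6% of all genes, and DESeq2 called 2 higher and 0 lower (6.78% and 2.57% of all genes). The shares higher and lower were 25% and 15% in SmoM2 and 15% and 20% in PKI, near those of all genes (16.2% and 13.5%, 18.7% and 15.8%). The integrin subunit gene Itgb6, whose product binds fibronectin and tenascin-C, rose by 1.12 in SmoM2 and 1.35 in PKI. Tlr4, a receptor for soluble biglycan, rose by 1.04 and 1.73. The integrin gene Itga4 fell by 0.81 and 2.32 in the same models. The collagen receptor Ddr2 fell by 3.23 in SmoM2, and Itga3 fell by 0.51 in PKI.

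Enzymes that build the sugar chains or cut the core proteins included Chst11, Adamts1 and Adamts9, which were called higher in all 3 models. Of the chondroitin and dermatan sulfate synthesis genes, 8 of 20 were higher and 1 lower in SmoM2 (16.2% and 13.5% of all genes). For Gnas-eKO the counts were 1 of 20 and 0 (1.46% and 0.165% of all genes). For PKI they were 3 of 19 and 6, of which the share higher, 15.8%, was no larger than that of all genes (18.7% higher and 15.8% lower). The chondroitin sulfotransferase gene Chst11 rose by 2.93, 2.52 and 1.44 (edgeR adjusted p 6.99e-05, 0.0329 and 0.001). Chst3, another sulfotransferase gene, fell by 0.82 in SmoM2 and 1.30 in PKI. Ust rose by 1.20 in SmoM2, and Chsy1 rose by 1.04 in SmoM2 and 1.14 in PKI. Xylt2, which starts the chains, rose by 0.83 in SmoM2 and fell by 0.49 in PKI. Of the proteases, 4 of 7 were higher and 0 lower in SmoM2. For Gnas-eKO it was 3 of 8 and 0, and for PKI 3 of 7 and 2, against the same shares of all genes in each model. Adamts1, which cleaves versican, rose by 3.20, 3.00 and 3.03 (edgeR adjusted p 1.84e-05, 0.0494 and 2.6e-05), and Adamts9, of the same group, by 2.15, 3.48 and 1.54. In PKI, Adamts1 was at 80.9 to 120 CPM in BCC, against 11.1 to 12.6 CPM in Con. Its BCC libraries had 109 to 170 CPM in SmoM2 and 36.0 to 234 CPM in Gnas-eKO. Tll1 rose by 0.64 in SmoM2 and fell by 1.22 in PKI.

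**Figure D4:**
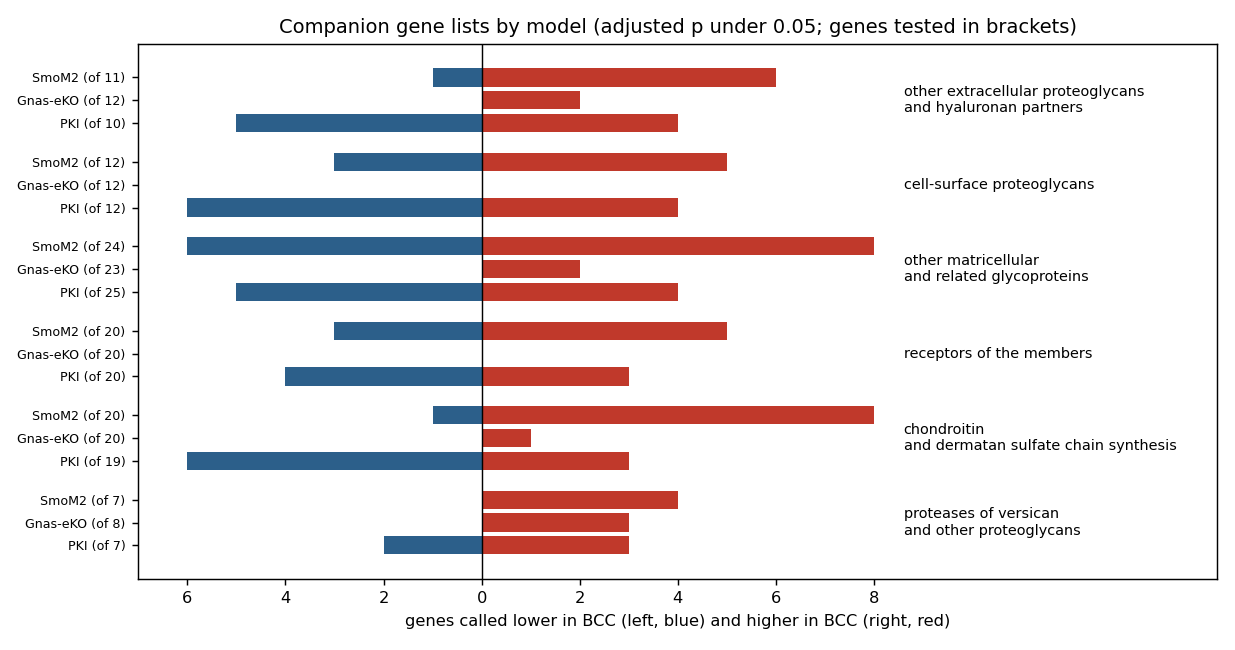
Bars show how many genes of each further list were called higher (right, red) or lower (left, blue) in BCC at an adjusted p under 0.05 in each model, with the number tested in brackets. The bars of Gnas-eKO are the shortest in every list but the proteases, where 3 of 8 were higher, equal to the count in PKI.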

How the data were processed

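Estimated counts per gene were deposited by the authors without normalization (33.1% of values are not whole), next to their TMM-normalized signal table, used here only for 1 alternative. Per the submitters' processing notes, bcl2fastq 2.20, cutadapt 1.18, STAR 2.7.0f, Partek and build mm10 were used. The counting tool, annotation and strand setting are not given in the sources used here.

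After rounding to whole numbers, edgeR 4.0.16 (R 4.3.3) was applied: filterByExpr by group, TMM, robust glmQLFit and glmQLFTest, BCC against Con within a model (7 libraries), and interaction contrasts between models (14 libraries), with Benjamini-Hochberg adjustment over all genes tested and a threshold of 0.05. The SE is the absolute log2 fold change over the square root of F. CPM used TMM-scaled library sizes over 21 libraries. Deposited gene ends lie 1 base past GENCODE M21 ends, which are given here. Alternatives used DESeq2 1.42.0 and limma 3.58.1 on log2(value + 1). The code was tested on simulated counts. Every pair of libraries of 1 group differed by more than sampling noise (lowest chi-square over its degrees of freedom 8.93).

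The members and gene lists were chosen with earlier results of these data known. Named genes are the 9 members, and from each further list and model the called genes with the 2 highest and 2 lowest log2 fold changes and a mean log2 CPM no lower than 1; every other model in which such a gene was called is given too, and the cell markers named were chosen after their values were seen. For likeness, the 3 genes of highest Pearson's r per member were taken among those at or above the same level.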

Additional observations from a re-analysis of the deposited data

Results flagged for a closer look

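Dixon's test for a single far value was run on each member in each group of 4 BCC libraries, 27 groups in all, and chance marks about 1 group in 20. It marked Fn1 in SmoM2 BCC replicate 2, at 40.7 CPM beside 15.2 to 17.6 CPM in the other libraries of the group. It also marked Postn in PKI BCC replicate 3, at 878 CPM beside 695 to 722 CPM.

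The effect of BCC differed between models by the interaction test (edgeR) for Dcn, PKI less SmoM2 (−2.14), Vcan, PKI less SmoM2 (−3.12), Tnc, PKI less SmoM2 (−1.98), and Vcan, PKI less Gnas-eKO (−4.28). In all 4 the PKI effect was the smaller one, and the model cannot be told apart from the batch and the day.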

How the results depend on the processing

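Each alternative was run on its own, and the DESeq2 Wald test also changed the scaling, as the limma fit of the authors' normalized table changed values, scale and test together. Recomputed with all libraries kept, 162 log2 fold changes of members stayed on their side of the threshold, 16 newly passed it, 11 no longer did and 0 changed sign. With the DESeq2 Wald test, 8 members were called higher for SmoM2, 8 for Gnas-eKO and 6 for PKI, Lum among them in each. The shares of all genes called higher by DESeq2 were 17.1%, 6.78% and 19.9%. Between PKI and Gnas-eKO, 2 members differed, beside 2389 of 17254 genes. DESeq2's size factors and no filter on low counts each gave 3 higher in Gnas-eKO, beside 258 of 16409 and 309 of 23571 genes called. Without the filter, 0 members differed between PKI and Gnas-eKO, beside 1302 of 23703 genes. Leaving out 1 library gave 5 to 8 higher and 1 to 1 lower in SmoM2, 0 to 7 higher and 0 to 1 lower in Gnas-eKO, and 3 to 7 higher and 1 to 1 lower in PKI. It gave 3 to 4 differing between PKI and SmoM2, 0 to 2 between PKI and Gnas-eKO, and 0 to 0 between Gnas-eKO and SmoM2. Over all genes the same fits called 3613 to 4627 in SmoM2, 0 to 1910 in Gnas-eKO and 4057 to 5466 in PKI. Genes with differing effects numbered 3401 to 4429 between PKI and SmoM2, 673 to 2512 between PKI and Gnas-eKO and 14 to 79 between Gnas-eKO and SmoM2. The cause of these shifts was not tested. Lum had too few counts for the filter in 3 of the 7 fits without a library in SmoM2 and in Gnas-eKO, which gave no value.

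The deviations of Con and BCC libraries of 1 number from their group means had correlations of −0.127 to −0.087 in SmoM2, 0.0411 to 0.184 in Gnas-eKO and −0.0662 to 0.282 in PKI, and 0, 1 and 2 of 3 Con libraries correlated best with their own number. The labels state no pairing beyond the number, and 3 correlations per model are too few to show whether libraries of 1 number were paired. With the replicate number as a block, 6 members were called higher and 0 lower in SmoM2, 2 and 0 in Gnas-eKO (where Vcan had a log2 fold change of 4.23, adjusted p 0.148), 7 and 1 in PKI, 0 differed between PKI and Gnas-eKO and 2 between PKI and SmoM2. Over all genes the block fits called 3428 of 16370 in SmoM2, 135 of 16409 in Gnas-eKO and 5988 of 16397 in PKI. Effects differed for 925 of 17254 genes between PKI and Gnas-eKO and for 3958 of 17261 between PKI and SmoM2. With this replicate block, small differences of effects changed sign: Bgn (−0.27) and Fn1 (−0.057) between Gnas-eKO and SmoM2, and Thbs1 (0.024) between PKI and Gnas-eKO. In the authors' normalized table, that of Bgn between Gnas-eKO and SmoM2 was −0.12.

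Without 1 library, some differences of effects also changed sign, none of them past the threshold. Between Gnas-eKO and SmoM2, Bgn ranged from −0.31 to 0.29, Fn1 from −0.57 to 1.09 and Postn from −0.050 to 0.26. Between PKI and SmoM2, Lum ranged from −0.64 to 3.21 (1.14, SE 1.27, with every library) and Thbs1 from −0.089 to 0.60. Between PKI and Gnas-eKO, Sparc ranged from −0.60 to 0.037 and Thbs1 from −0.51 to 0.17. At this depth Lum, with 0 to 9 counts in Con, is the member whose values are limited by counting.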

Other observations

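The genes whose log2 CPM ran most alike with each member but Lum, whose mean level was under the minimum for this list, were listed, as a description over the 21 libraries, which fall into Con and BCC groups of 3 models and share these. Dcn and Tnc were near each other, with Pearson's r of 0.953 between them, followed for Dcn by Cpxm1 (0.944) and Bcam (0.943) and preceded for Tnc by Bcam (0.970). Bgn ran with the basement membrane collagen gene Col4a1 (0.989), with Col14a1 (0.986) and with Sox13 (0.983). Vcan ran with Cgnl1 (0.969), Ccdc187 (0.966) and Gprc5b (0.961). Fn1 was most like Bgn (0.908), Postn most like Nsmf (0.954) and Thbs1 most like Alox12e (0.844). Sparc, the member that was lower in BCC, ran with Fras1 (0.947), a gene of the epidermal basement membrane, Raph1 (0.923) and Trim2 (0.919). Within the 12 BCC libraries alone, which also fall into 3 models, Bgn and Vcan were close (0.961) and Dcn and Tnc less so (0.876). Dcn and Lum, the latter at a low level, had an r of −0.597 there, but of 0.592 over the 21 libraries. For Postn and Sparc it was −0.548 there and −0.826 over the 21 libraries.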
